A study of Mus musculus with 2 samples.

Results

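The tetraspanins measured here were 9 named genes, *Cd9*, *Cd63*, *Cd81*, *Cd82*, *Cd53*, *Cd37*, *Cd151*, *Tspan3* and *Tspan4*, of the 32285 genes counted in single alveolar macrophages (AMs), the resident macrophages of the airspaces. They were chosen by name, with earlier results of these data known. The study had already used *Cd63* and *Cd9* to describe clusters of these cells. Their levels were read in every cell barcode with at least 500 detected genes and at most 10% of its transcripts from mitochondrial genes, first per library and then across 4 states of AMs set by marker genes. There were 2 droplet libraries of AMs sorted from lungs of C57BL/6 mice 10 weeks old. The control library came from mice given vehicle, and the tumor library from mice whose left lung had been inoculated with LLC cells, a mouse lung carcinoma line from the same strain. The study recognised AMs as CD45+ cells with strong autofluorescence that carry Siglec-F and F4/80, and in tumor-bearing lungs the autofluorescent cells also held macrophages with CD11b and without Siglec-F. The exact gate of these libraries and the number of animals behind each are not given in the sources used here. Each condition had 1 library, so no test between conditions was possible, and batch and condition cannot be told apart.

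Tetraspanins are small proteins that cross the membrane several times and hold partner proteins, such as integrins, immunoglobulin family receptors and proteases, together in patches of the membrane. Some, such as CD9, CD81 and CD151, act mainly at the cell surface in adhesion, migration and fusion, while CD63 cycles through late endosomes and lysosomes and is sorted into exosomes. CD53 and CD37 are made chiefly by leukocytes, and CD9 and CD81 are known to limit the fusion of macrophages into giant cells.

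The genes lie on several chromosomes of GRCm38 (GENCODE vM21), and all are protein coding. *Cd9* (ENSMUSG00000030342) is at chr6:125460266-125494791 on the minus strand, *Cd63* (ENSMUSG00000025351) at chr10:128900989-128912822 on the plus strand, *Cd82* (ENSMUSG00000027215) at chr2:93419111-93463140 on the minus strand, *Cd53* (ENSMUSG00000040747) at chr3:106759921-106790149 on the minus strand and *Tspan3* (ENSMUSG00000032324) at chr9:56131725-56165477 on the minus strand. The other members share chromosome 7, with *Cd37* (ENSMUSG00000030798) at chr7:45233632-45239115 on the minus strand, *Cd151* (ENSMUSG00000025510) at chr7:141467392-141471473, *Tspan4* (ENSMUSG00000025511) at chr7:141475240-141493427 and *Cd81* (ENSMUSG00000037706) at chr7:143052739-143067934, these last on the plus strand. *Cd151* and *Tspan4* are separated by 3766 bases. *Tspan4* overlaps *Chid1* on the opposite strand, which was counted with 1000 control and 1171 tumor UMIs, about as many as *Tspan4* itself. *Cd37* overlaps *Tead2*, which had 28 and 35 UMIs, *Cd151* overlaps *Gm10575* with 141 and 71, *Cd81* overlaps *R74862* with 69 and 44, and *Cd9* overlaps *Gm28809* with 484 and 295 and *Gm26728* with 213 and 96, all on the opposite strand. Whether the counting used the strand of the reads is not given in the sources used here, so the levels of these members carry that limit, *Tspan4* most.

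The promoters of the 4 members whose levels the results below turn on are shown so that their base composition can be compared. Each is the stretch of 250 bases before the start site, from RefSeq on GRCm38.p6, and capitals mark the GC box GGGCGG on either strand and, in *Tspan3*, a CCAAT box read on the other strand. The *Cd63* and *Tspan3* stretches lie inside the GENCODE spans given above, so for these genes the sources differ in the outermost start. Those of *Cd81* and *Cd9* lie at the start of the span. The comparison of base composition carries that limit.
Cd63, chr10:128909095-128909344, plus strand: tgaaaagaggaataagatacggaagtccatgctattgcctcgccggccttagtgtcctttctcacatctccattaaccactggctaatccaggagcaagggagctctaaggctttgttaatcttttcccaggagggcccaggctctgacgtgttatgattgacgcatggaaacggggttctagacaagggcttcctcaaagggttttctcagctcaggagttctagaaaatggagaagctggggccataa
Cd81, chr7:143052500-143052749, plus strand: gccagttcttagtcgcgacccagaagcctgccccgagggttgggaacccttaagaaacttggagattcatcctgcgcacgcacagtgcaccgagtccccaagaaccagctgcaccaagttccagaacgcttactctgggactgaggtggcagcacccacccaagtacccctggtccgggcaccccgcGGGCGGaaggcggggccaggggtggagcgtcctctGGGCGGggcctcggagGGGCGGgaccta
Cd9, chr6:125494761-125495010, minus strand: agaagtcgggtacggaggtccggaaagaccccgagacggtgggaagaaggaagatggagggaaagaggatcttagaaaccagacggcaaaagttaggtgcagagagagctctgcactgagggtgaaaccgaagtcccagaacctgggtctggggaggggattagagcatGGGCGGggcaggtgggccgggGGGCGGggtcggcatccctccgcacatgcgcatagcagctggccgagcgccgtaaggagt
Tspan3, chr9:56161071-56161320, minus strand: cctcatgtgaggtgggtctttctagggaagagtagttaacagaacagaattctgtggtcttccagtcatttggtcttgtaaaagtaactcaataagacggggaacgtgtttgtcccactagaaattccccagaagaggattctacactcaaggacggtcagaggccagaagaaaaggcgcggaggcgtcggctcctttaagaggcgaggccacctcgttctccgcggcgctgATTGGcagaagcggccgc
The *Cd63* stretch held no GC box, 48.8% G and C bases and 6 CpG dinucleotides. The *Cd81* stretch held 3 GC boxes, 65.6% G and C and 16 CpG, the *Cd9* stretch 2 GC boxes, 61.6% G and C and 16 CpG, and the *Tspan3* stretch no GC box, 52.4% G and C and 14 CpG. A GC box was found in 32.7% of all 32851 promoter stretches of that length. *Tspan3* alone of these held a CCAAT box (CCAAT, in 33.8% of all stretches). None of the 4 stretches held a TATA box (TATAAA, 12.4%), an E-box (CACGTG, 6.02%), an AP-1 site (TGACTCA, 4.46%), a PU.1 site (AGGAAGT, 7.69%) or a STAT site (TTCNNNGAA, 7.02%), each searched on both strands. A match or its absence describes only these letters in this window.

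The quality filter kept 6185 of 8485 control barcodes and 7666 of 9175 tumor barcodes, with 64850143 and 68801889 unique molecular identifiers (UMIs, each a counted transcript molecule) and medians of 10370 and 8264 UMIs per barcode. No barcode was removed as a doublet, and 17 kept barcode sequences occurred in both libraries. All 12 AM markers, among them *Chil3*, *Marco* and *Siglecf*, were detected in both libraries, summing to 17530 and 15665 CPM (UMIs scaled to the same total in each library or group of barcodes). Marker lists of monocytes, neutrophils, lymphocytes, fibroblasts, epithelial and endothelial cells summed to at most 128 CPM each in control and 177 CPM in tumor. Barcodes with markers of another type, monocytes not counted as one, numbered 152 in control and 27 in tumor. Of the 152, 132 had epithelial markers while carrying the AM gene *Chil3* at 11278 CPM.

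Levels below are UMIs summed over barcodes and given as CPM of the same barcodes. The 3′ chemistry counts molecules and does not scale with transcript length, so levels were not divided by length, and capture may still differ between genes. Parentheses hold exact 95% intervals that cover counting error only, not the variation between cells or animals.

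*Cd9*, known for its part in egg and sperm fusion and as an exosome marker, was the most abundant member in both libraries. Its level was 3911 CPM (3896 to 3926) in control and 3249 CPM (3235 to 3262) in tumor, the 14th highest of 18614 detected genes in control and the 19th of 18391 in tumor. *Cd63*, the late endosome and lysosome member, followed at 418 CPM (413 to 423) in control and 806 CPM (799 to 813) in tumor, and moved from place 338 to place 173 among all genes. *Cd53*, the general leukocyte tetraspanin, had 304 CPM (300 to 308) and 345 CPM (340 to 349). *Cd81*, a widely expressed surface member, had 257 CPM (253 to 261) and 199 CPM (196 to 203). The order *Cd9*, *Cd63*, *Cd53*, *Cd81*, *Cd82* was the same in both libraries, with no overlap of intervals between neighbours.

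*Cd82*, named for the suppression of metastasis, was lower, at 50.5 CPM (48.8 to 52.3) in control and 49.3 CPM (47.6 to 51.0) in tumor. *Cd37*, a leukocyte member best known in B cells, had 23.7 CPM (22.5 to 24.9) and 22.6 CPM (21.5 to 23.8). *Cd151*, the partner of laminin-binding integrins, had 21.5 CPM (20.4 to 22.7) and 24.4 CPM (23.3 to 25.6). The intervals of *Cd37* and *Cd151* overlapped in each library, so their order, which differed between the libraries, was not resolved. *Tspan4*, a builder of migrasomes, the vesicles left on the trailing fibres of migrating cells, had 14.1 CPM (13.2 to 15.0) and 17.7 CPM (16.7 to 18.7). *Tspan3*, a widely expressed member, was the lowest, at 2.27 CPM (1.91 to 2.66) from 147 UMIs in control and 6.79 CPM (6.19 to 7.43) from 467 UMIs in tumor.

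All 9 members together held 5002 CPM in control and 4720 CPM in tumor. *Cd9* contributed 78.2% of the family's UMIs in control and 68.8% in tumor, while *Cd63* contributed 8.36% and 17.1%. The summed family level was therefore close in the libraries while its makeup differed.

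**Figure D1:**
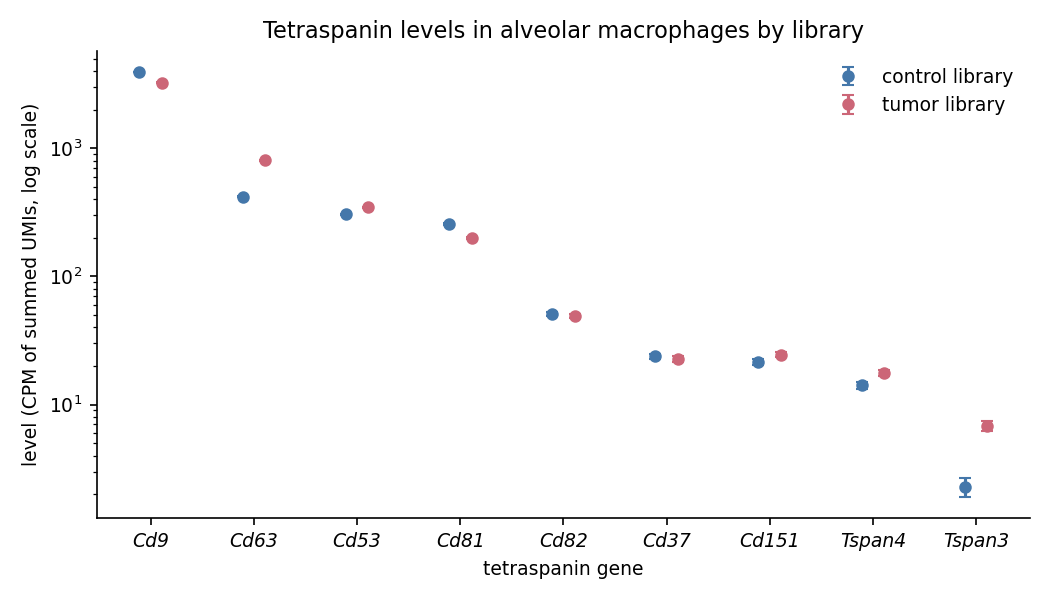
Level of each tetraspanin (CPM of summed UMIs, log axis) in the control and the tumor library, with exact 95% Poisson intervals. *Cd63* lies at 418 CPM in control and 806 CPM in tumor and *Tspan3* at 2.27 and 6.79 CPM, while *Cd82* and *Cd37* lie at nearly the same level in both.

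The tumor library was compared with the control library to see which members differed with tumor bearing, and 2 of 9 members, *Cd63* and *Tspan3*, were at least 1.5-fold higher and 0 were at least 1.5-fold lower. The log2 ratio was 0.95 (0.93 to 0.97) for *Cd63*, a 1.93-fold difference, and 1.58 (1.31 to 1.86) for *Tspan3*. Of the 5741 genes with at least 20 CPM over both libraries, 4.48% were higher and 2.58% lower by that fold. Among the 7 members that reach 20 CPM themselves, *Tspan3* and *Tspan4* excluded, 1 was higher and 0 lower. The median log2 ratio was 0.18 over the 9 members and −0.02 over the 5741 genes. A list of 12 immediate early and heat shock genes known to respond to tissue digestion summed to 3938 CPM in control and 6624 CPM in tumor, and its part in the differences was not tested.

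*Cd81* and *Cd9* were lower in tumor by less than 1.5-fold, with log2 ratios of −0.37 (−0.40 to −0.33) and −0.27 (−0.28 to −0.26). *Tspan4*, *Cd151* and *Cd53* were higher by less than 1.5-fold, at 0.33 (0.21 to 0.46), 0.18 (0.08 to 0.29) and 0.18 (0.15 to 0.21). The intervals of *Cd82*, −0.04 (−0.11 to 0.03), and *Cd37*, −0.07 (−0.17 to 0.04), included no difference, and with these bounds a difference of 1.5-fold lay outside their counting error. With each barcode thinned to 3800 UMIs, *Cd82* was at −0.12 and *Cd37* at −0.28, beyond these intervals and still under 1.5-fold. *Tspan3* UMIs also came from the 9 tumor barcodes with fibroblast markers, where its level was 93.6 CPM. Without the barcodes of other types its log2 ratio stayed inside the interval given above.

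Over barcodes, *Cd63* was higher in tumor at the median and at both quartiles. The median barcode had 2.54 *Cd63* UMIs per 10000 in control and 5.79 in tumor, the lower quartile 0 and 2.65, and the upper quartile 5.75 and 10.0. The 10% of barcodes with most *Cd63* held 42.6% of its UMIs in control and 38.9% in tumor, against 24.4% and 26.1% for *Cd9*. When each barcode was thinned to 3800 UMIs, 58.2% (56.9 to 59.5) of 5590 control and 81.3% (80.3 to 82.2) of 6937 tumor barcodes had a *Cd63* UMI, and the unthinned shares were 71.0% and 88.5%. For *Cd81* the thinned shares were 60.1% (58.8 to 61.4) and 49.6% (48.4 to 50.8), with 82.7% and 68.3% unthinned. Thinning left out 595 control and 729 tumor barcodes that had fewer UMIs. As a guide to free RNA, 1 of 5 control barcodes with T or NK cell markers had a *Cd63* UMI, at a median of 6686 UMIs per barcode, although summed over these 5 its level was 636 CPM, with *Cd9* at 2758 CPM and the AM gene *Chil3* at 6276 CPM, so they do not lack AM transcripts. The 4 such tumor barcodes held *Cd9* at 42.9 CPM and no *Cd63* UMI, which allows up to 129 CPM.

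The libraries were next compared within states, since they hold different shares of them. A barcode was put in the Apoe+S100a6 state when *Apoe*, a lipid carrier, and *S100a6*, a calcium-binding protein, each reached 3 UMIs per 10000 and 2 UMIs. The Ear1+Ear2 state held barcodes with UMIs of both of these eosinophil-type ribonucleases, which resting AMs make, and in the top 10% for their sum, and the interferon state those in the top 5% for 10 interferon-induced genes such as *Isg15* and *Cxcl9* that also had UMIs of at least 3 of them, both taken over the libraries together. The mitotic state needed 5 UMIs per 10000 and 4 detected genes of 12 genes of cell division such as *Mki67* and *Top2a*. A barcode that met none was unassigned, which was the case for 79.9% of control and 74.8% of tumor barcodes, and one that met several was set aside.

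In the control library 875 barcodes (14.1%) were Ear1+Ear2, 307 (4.96%) mitotic, 22 Apoe+S100a6 and 18 interferon. In the tumor library the numbers were 443 (5.78%), 152 (1.98%), 811 (10.6%) and 352 (4.59%). The control library thus had too few Apoe+S100a6 and interferon barcodes, under 50, for a ratio, and with 1 library per condition a state held mostly by one library may be that library. The states are ranges on a score and not cell types. Barcodes of one state also differed between the libraries in other markers. In unassigned barcodes *Apoe* was at 22.2 CPM in control and 269 CPM in tumor, *S100a6* at 44.0 and 439, and *Marco* at 579 and 245. In mitotic barcodes *S100a6* was at 56.2 and 651 CPM. The part of these markers in the comparisons within states was not tested. Within 20% of the Ear1+Ear2 threshold lay 972 control and 519 tumor barcodes, beside 905 and 481 at or above it, while for the mitotic threshold 82 and 37 lay near it and 389 and 204 at or above it.

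*Cd63* was higher in the tumor library within each state that could be compared. In unassigned barcodes it was at 454 CPM in control and 709 CPM in tumor, a log2 ratio of 0.64 (0.62 to 0.67), which fell under the 1.5-fold limit, to 0.51, with looser state thresholds. In Ear1+Ear2 barcodes the levels were 317 and 650 CPM, a log2 ratio of 1.04 (0.95 to 1.12), and in mitotic barcodes 178 and 402 CPM, a log2 ratio of 1.18 (1.03 to 1.32). *Cd63* therefore differed most between the libraries in the states where its control level was lowest.

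*Tspan3* was higher in tumor in unassigned barcodes, where 2.28 CPM in control and 5.86 CPM in tumor gave a log2 ratio of 1.36 (1.04 to 1.68). In mitotic barcodes it rested on 12 and 18 UMIs, with a log2 ratio of 1.80 (0.67 to 2.99), and in Ear1+Ear2 barcodes on 13 and 10 UMIs, with 0.87 (−0.48 to 2.18), an interval that included no difference. Thinned to 3800 UMIs, its mitotic ratio was 0.59 from 8 and 6 UMIs, and in Ear1+Ear2 barcodes 2 and 6 UMIs were left, so its size in these states was not resolved. In each of the 3 states, *Cd63* and *Tspan3* were the 2 of 9 members past 1.5-fold and 0 were lower, so 1 was higher among the 7 members at 20 CPM. Thinned, the mitotic barcodes had 4 members higher, with *Cd151* at 0.92 and *Tspan4* at 1.86 added, and the mean of each barcode's CPM put *Cd37* at −0.73 there. The share of all genes past the fold is not given for these settings. Without them, of all genes, 3.92% were higher and 1.67% lower in unassigned, 2.51% and 2.07% in Ear1+Ear2, and 5.10% and 3.57% in mitotic barcodes. The median over members was 0.09, 0.12 and 0.17, beside 0.01, −0.02 and −0.01 over all genes, in that order of states.

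*Cd81* differed between the libraries less within each of these 3 states than overall. Its log2 ratio was −0.23 (−0.26 to −0.19) in unassigned, 0.01 (−0.10 to 0.13) in Ear1+Ear2 and −0.14 (−0.31 to 0.02) in mitotic barcodes. *Cd9* was lower in tumor in all 3, at −0.23, −0.18 and −0.32, each with an interval below 0. *Cd37* was at −0.22 (−0.34 to −0.10) in unassigned barcodes, while its intervals in Ear1+Ear2 and mitotic barcodes included no difference. *Tspan4* had 0.09 (−0.06 to 0.23) in unassigned, 0.39 (−0.12 to 0.88) in Ear1+Ear2 and 0.53 (−0.29 to 1.32) in mitotic barcodes, and all 3 intervals included no difference, although thinned mitotic barcodes gave 1.86 from 5 control and 9 tumor UMIs.

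To set the state shares equal, the tumor levels of each state were weighted by the control shares. The tumor level of *Cd63* was then 686 CPM in place of 806 CPM, which leaves a log2 ratio of 0.72 over control, and *Tspan3* was at 5.76 CPM with 1.35. *Cd81* came to 225 CPM with −0.19, and *Cd9* to 3336 CPM with −0.23. Weighted the other way, with control levels at the tumor shares, the control level of *Cd63* was 479 CPM, with a log2 ratio of 0.75, and that of *Tspan3* 3.41 CPM, with 0.995. *Cd81* then kept −0.32, nearer to the −0.37 before weighting, and *Cd9* had −0.20. This direction uses the 22 and 18 control barcodes of the rare states.

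**Figure D2:**
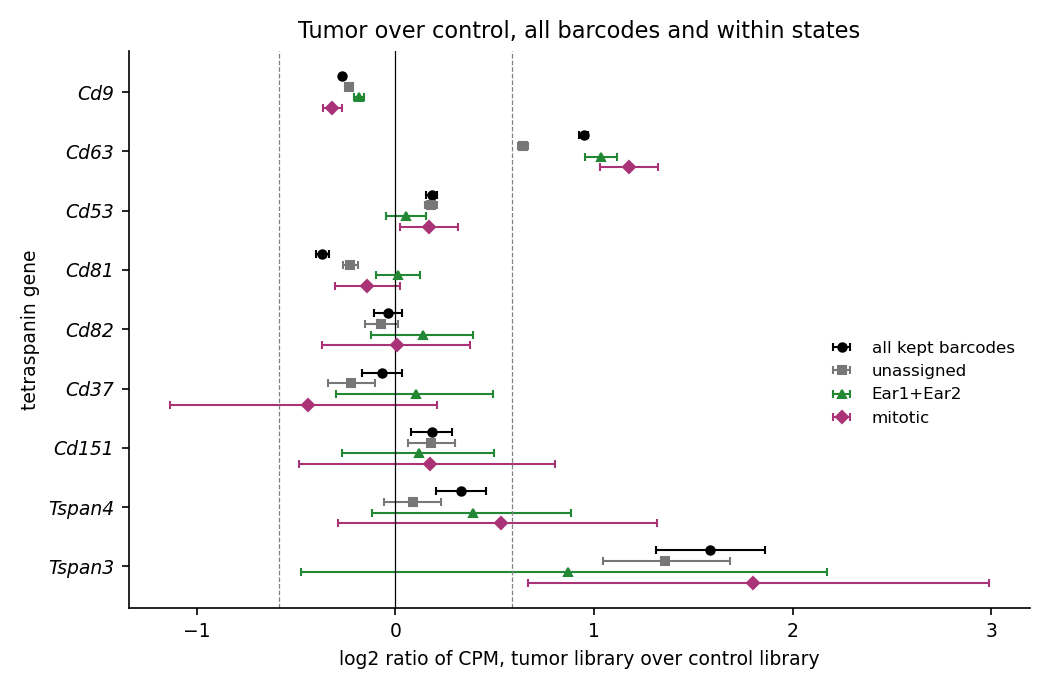
Log2 ratio of tumor over control CPM for each tetraspanin in all kept barcodes and within the unassigned, Ear1+Ear2 and mitotic barcodes. Points carry exact 95% intervals of counting error and dashed lines mark 1.5-fold. *Cd63* lies to the right of the line in all 4 sets at the state thresholds used here, while *Cd81* moves from −0.37 overall to 0.01 in Ear1+Ear2 barcodes.

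The Apoe+S100a6 state of the tumor library, in which *Marco*, the AM scavenger receptor, was at 20.9 CPM beside 245 CPM in unassigned barcodes, differed in its tetraspanins from the unassigned barcodes of the same library. *Cd63* was at 1217 CPM beside 709 CPM, a log2 ratio of 0.78 (0.75 to 0.81). *Cd81* was at 94.1 CPM beside 220 CPM, a log2 ratio of −1.23 (−1.33 to −1.12), the lowest of any state with at least 50 barcodes. The 175 tumor barcodes that met several states and were set aside had *Cd81* at 83.5 CPM (72.4 to 95.9). *Tspan4* was at 27.8 CPM beside 16.0 CPM with 0.80 (0.58 to 1.01), and *Tspan3* at 11.0 CPM beside 5.86 CPM with 0.92 (0.56 to 1.26). Thus 3 of 9 members were at least 1.5-fold higher and 1 was lower, beside 1.85% and 5.33% of all genes, and of the 7 members at 20 CPM, 1 was higher and 1 lower. The median log2 ratio was 0.01 over members and −0.12 over all genes. *Cd9*, *Cd53*, *Cd82* and *Cd151* lay near 0, at −0.06, 0.01, −0.04 and −0.06, and *Cd37* was at 0.36 (0.15 to 0.57). The median of all genes was more than 0.1 below 0 in 3 comparisons of the tumor library, this one, Ear1+Ear2 (−0.11) and interferon (−0.16), and relative to it *Cd63* was at 0.90 and *Cd81* at −1.11 in the Apoe+S100a6 state.

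Several markers of other cells were higher in this state and most AM markers lower. *Itgam*, which encodes CD11b, was at 44.8 CPM beside 8.14 CPM in unassigned barcodes, and *Siglecf* at 59.6 beside 111 CPM. The 8 monocyte markers, all detected, summed to 279 CPM beside 138 CPM in unassigned barcodes. The highest of them, *Fcgr4*, was alone in being lower, at 96.7 beside 104 CPM. The neutrophil list summed to 189 beside 113 CPM, of which *S100a8* held 160 and 87.2 CPM, with *S100a9*, *Retnlg* and *Ly6g* at 0. The AM list summed to 11702 beside 16383 CPM. In it *Itgax*, at 454 beside 379 CPM, and *Atp6v0d2*, at 773 beside 721 CPM, were higher and the rest lower. The T and NK, B and fibroblast lists summed to 1.19 CPM or less each, and the part of these markers in the result was not tested. The median depth was 9605 beside 7867 UMIs, and thinned to 3800 UMIs *Cd63* was at 0.78 and *Cd81* at −1.26. Leaving out barcodes with markers of other types, 27 in the whole tumor library, gave 0.78 for *Cd63* and −1.23 for *Cd81*. Monocytes were not among those types, so this cannot show the part of the monocyte markers.

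In the control library the 22 Apoe+S100a6 barcodes had *Cd63* at 797 CPM and *Cd81* at 194 CPM, beside 454 and 258 CPM in its unassigned barcodes. Those barcodes also carried the neutrophil list at 3515 CPM, so only their levels are given.

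The *Apoe* and *S100a6* thresholds were also taken apart, with other states ignored, a division chosen after the data were seen. In the tumor library 4386 barcodes met neither, 1778 *S100a6* only, 533 *Apoe* only and 969 both. *Cd63* was at 647, 800, 1000 and 1268 CPM in that order, and each interval lay above the one before. *Cd81* was at 254 CPM (249 to 259) with neither, 161 (155 to 167) with *S100a6* only, 167 (156 to 179) with *Apoe* only and 90.1 (84.5 to 96.0) with both. In tumor each marker alone thus went with a lower *Cd81* level, and both together with the lowest.

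*Tspan3* was at 3.78 CPM (3.17 to 4.47) with neither marker and at 9.49, 9.61 and 11.3 CPM in the other classes, whose intervals overlapped. *Tspan4* was at 14.0 CPM (12.8 to 15.3) with neither, 17.5 (15.6 to 19.6) with *S100a6* only, 25.6 (21.4 to 30.5) with *Apoe* only and 26.9 (23.9 to 30.2) with both. Each class with a marker thus lay above neither, and the classes with *Apoe* were highest. *Cd37* was also higher in both classes with *Apoe*, at 33.0 CPM (28.2 to 38.5) with *Apoe* only, 28.1 (25.0 to 31.5) with both, 22.0 (20.5 to 23.6) with neither and 17.6 (15.7 to 19.7) with *S100a6* only.

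Barcodes with neither marker also allowed the libraries to be set beside each other. There *Cd81* was at 260 CPM (256 to 264) in 5804 control barcodes and 254 CPM (249 to 259) in tumor, and *Tspan4* at 13.9 (13.0 to 14.9) and 14.0 CPM (12.8 to 15.3), with overlapping intervals. The classes with 1 marker differed in *Cd81*, with 249 CPM in control beside 167 CPM in tumor for *Apoe* only and 192 beside 161 CPM for *S100a6* only, and neither pair of intervals overlapped. With neither marker *Cd63* remained apart at 416 (411 to 421) and 647 CPM (638 to 655), as did *Tspan3* at 2.18 (1.83 to 2.59) and 3.78 CPM and *Cd9* at 3920 and 3418 CPM. So did *Cd53* at 305 (300 to 309) and 347 CPM (341 to 353) and *Cd151* at 21.4 (20.3 to 22.6) and 25.9 CPM (24.3 to 27.6). The intervals of *Cd82* and *Cd37* overlapped. The 247 control barcodes with *S100a6* only had *Cd81* at 192 CPM (176 to 210), also below the control barcodes with neither, while the 111 with *Apoe* only had 249 CPM (220 to 281), which overlapped them.

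**Figure D3:**
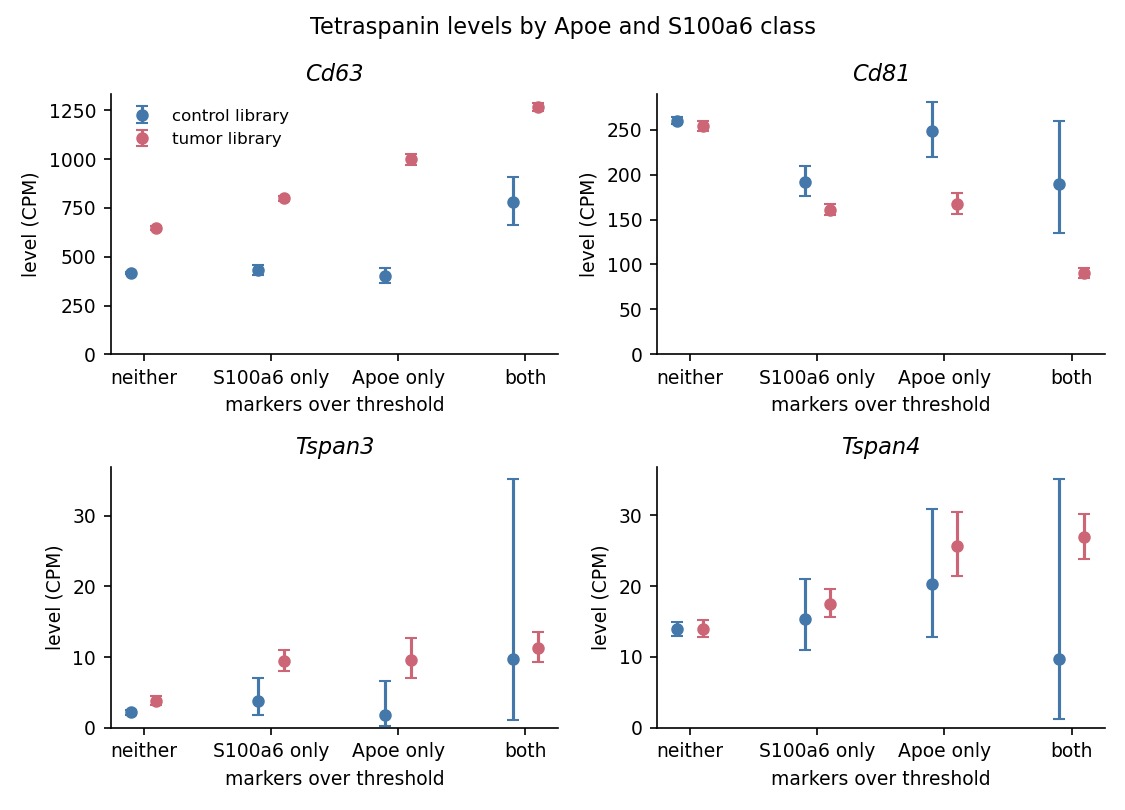
Level (CPM) of *Cd63*, *Cd81*, *Tspan3* and *Tspan4* in barcodes over the threshold for neither, 1 or both of *Apoe* and *S100a6*, in the control and the tumor library, with exact 95% Poisson intervals. In tumor *Cd63* goes from 647 CPM with neither to 1268 CPM with both while *Cd81* goes from 254 to 90.1 CPM, and the control class with both holds 23 barcodes.

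Within the 811 Apoe+S100a6 barcodes of the tumor library *Cd63* varied widely, with a 10th percentile of 3.02, a median of 9.46 and a 90th percentile of 19.7 UMIs per 10000. In 173 of them (21.3%) it was below 5.16, the median of the unassigned barcodes. The barcodes were split at their own *Cd63* median, so *Cd63* itself is not compared. The 406 in the upper part had *Cd9* at 3403 CPM (3352 to 3455) beside 2706 CPM (2653 to 2761) in the lower part, *Cd37* at 35.4 (30.3 to 41.1) beside 16.6 CPM (12.6 to 21.4) and *Tspan4* at 33.2 (28.2 to 38.7) beside 20.5 CPM (16.1 to 25.7). *Cd81* went the other way, at 76.8 (69.2 to 85.0) beside 118 CPM (107 to 129). *Apoe* was at 3151 beside 1255 CPM, *S100a6* at 1323 beside 1158 CPM and *Marco* at 9.68 beside 36.2 CPM. The upper part was also deeper, with a median of 11291 beside 7985 UMIs, and the part of depth in these differences was not tested.

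In the Ear1+Ear2 state *Cd9* had its highest level of any state in both libraries, 4945 CPM in control and 4353 CPM in tumor. Beside the unassigned barcodes the log2 ratios were 0.38 (0.36 to 0.39) and 0.43 (0.40 to 0.45). On a scale from the most lowered to the most raised gene, *Cd9* stood at percentile 99.0 in control and 96.6 in tumor, although it stayed under 1.5-fold. *Cd63* was lower in this state in control, at −0.52 (−0.58 to −0.46), and nearer to the unassigned level in tumor, at −0.13 (−0.19 to −0.07). In control 0 of 9 members passed 1.5-fold in either direction, beside 0.314% of genes higher and 1.08% lower. *Tspan3* was just inside the limit there, at −0.57 (−1.52 to 0.26) from 13 UMIs. Thinning put it past the limit, at −1.55 from 2 UMIs, as did the mean of each barcode's CPM, at −0.76. In tumor 0 were higher and 1 was lower, *Tspan3* at −1.06 (−2.13 to −0.16) from 10 UMIs, beside 1.27% and 4.62% of genes, and thinning moved it to −0.41, inside 1.5-fold. The neutrophil list summed to 73.4 and 104 CPM in this state, and *Cd81* in tumor was at 262 CPM, above the 220 CPM of unassigned barcodes.

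In mitotic barcodes *Cd63* had its lowest level among the states of each library, 178 CPM in control and 402 CPM in tumor, beside 176 CPM (129 to 235) in the 19 control barcodes that met several states. The log2 ratios to the unassigned barcodes were −1.35 (−1.46 to −1.25) and −0.82 (−0.92 to −0.72), the latter −0.57 and under the 1.5-fold limit when barcodes in several states were counted in each, while *Cd81* stayed at −0.06 (−0.15 to 0.02) and 0.02 (−0.12 to 0.16). *Cd9* was lower by −0.25 and −0.33. In control 2 of 9 members were at least 1.5-fold lower, *Cd63* and *Tspan4* at −0.86 (−1.37 to −0.38), and 0 were higher, beside 4.77% and 8.83% of genes. Thinned, *Tspan4* was at −1.76 from 5 mitotic UMIs, and *Tspan3* went from 0.24 to 1.87, past 1.5-fold higher, from 8. In tumor 2 were lower, *Cd63* and *Cd37* at −0.65 (−1.27 to −0.09), and 1 was higher, *Tspan3* at 0.68 (−0.09 to 1.37), beside 6.74% and 9.65%. Thinning moved *Cd37* to −0.23 and a limit of 5% mitochondrial UMIs moved *Tspan3* to 0.53, both inside 1.5-fold. *Cd151* was at −0.57 and −0.58, just inside the 1.5-fold limit of 0.58, and past it under 6 alternatives in control and 4 in tumor. Thinned, however, its tumor value turned to 0.12, from 15 mitotic UMIs, so its direction there was not resolved. The median over members was −0.25 in control and −0.33 in tumor, beside 0.01 and −0.00 over all genes. Mitotic barcodes had medians of 14480 and 11604 UMIs, above the 10294 and 7867 of unassigned barcodes, and with every barcode thinned to 3800 UMIs *Cd63* was at −1.33 in control and −0.84 in tumor.

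In the interferon state of the tumor library 0 of 9 members passed 1.5-fold in either direction, beside 2.60% of genes higher and 5.05% lower. *Cd63* came nearest, at 1056 CPM with a log2 ratio of 0.57 (0.53 to 0.62). Relative to the median of all genes it was at 0.73, past 1.5-fold, and 4 other alternatives also put it past that limit, at up to 0.75. *Cd37* was at 28.6 CPM with 0.42 (0.14 to 0.69) and *Cd81* at 172 CPM with −0.36 (−0.46 to −0.25). *Apoe* and *S100a6* were at 568 and 505 CPM in these barcodes, beside 269 and 439 CPM in unassigned barcodes, and 175 further tumor barcodes met several states and were set aside. The monocyte list summed to 286 CPM, and its part in the result was not tested.

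**Figure D4:**
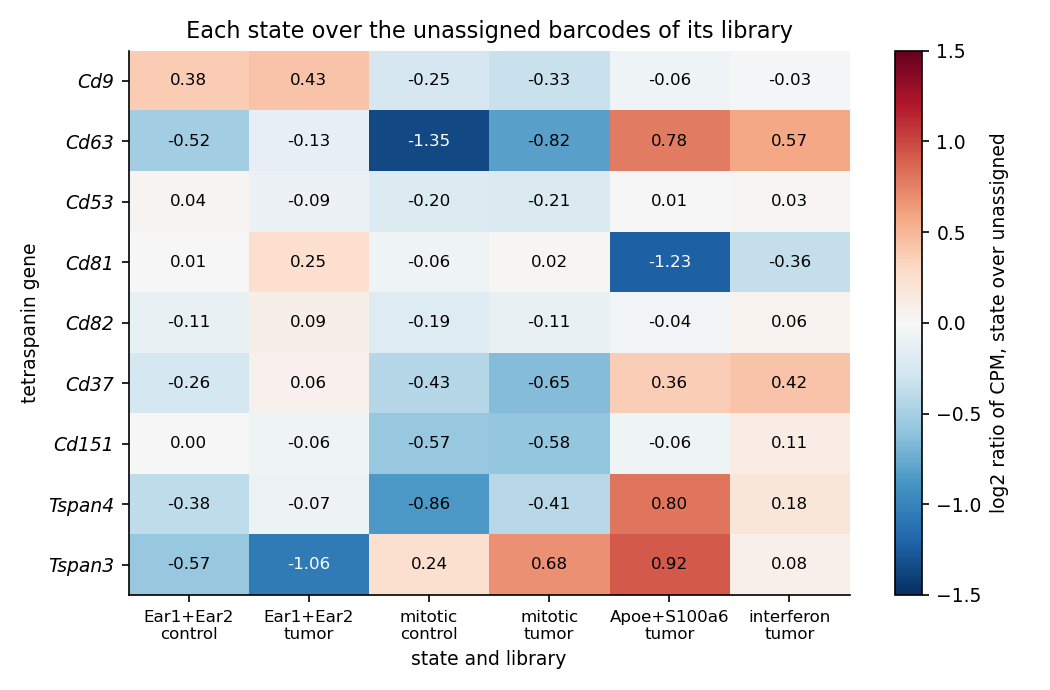
Log2 ratio of CPM for each tetraspanin in each state over the unassigned barcodes of the same library, for states with at least 50 barcodes. *Cd63* ranges from −1.35 in control mitotic to 0.78 in tumor Apoe+S100a6 barcodes, and *Cd81* is at −1.23 in the latter.

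**Figure D5:**
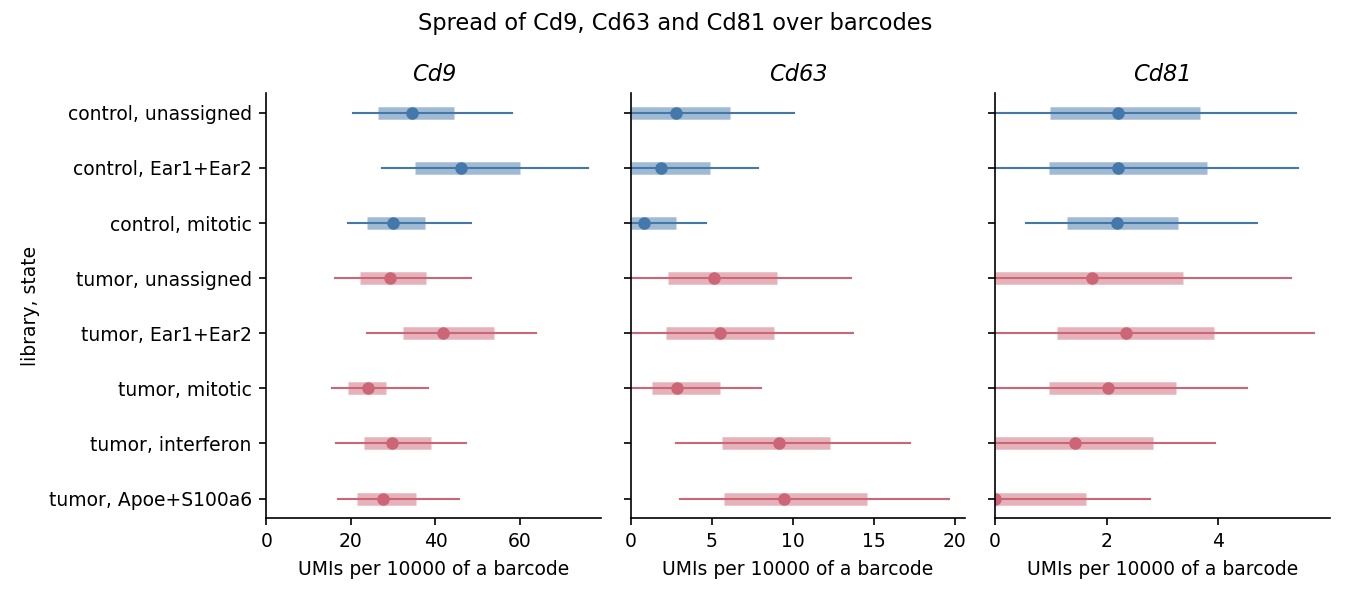
*Cd9*, *Cd63* and *Cd81* UMIs per 10000 over the barcodes of each library and state. Points are medians, thick bars run between the quartiles and thin lines between the 10th and 90th percentiles. The *Cd63* median goes from 0.84 in control mitotic to 9.46 in tumor Apoe+S100a6 barcodes, where the *Cd81* median is 0.

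Across the library by state sums with at least 50 barcodes, 8 in all, *Cd63* and *Tspan4* went together (Pearson r of log2(CPM + 1) 0.95), as did *Cd63* and *Cd53* (0.94), while *Cd9* went against *Tspan3* (−0.82), and *Cd81* against *Tspan4* (−0.81), *Tspan3* (−0.75) and *Cd63* (−0.69). These sums share 2 libraries and differ in depth, so the values are descriptions. Across thinned single barcodes the relations were weak. Spearman's rho between *Cd9* and *Cd63* was 0.16 over 5590 control and 0.18 over 6937 tumor barcodes, and between *Cd63* and *Cd81* it was 0.09 and −0.11.

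Among 4089 genes compared over the same 8 sums, genes most like *Cd63* included *Acp5* and *Ctsd* (r 0.99 and 0.98), which encode lysosomal enzymes. Those most like *Cd81* were *Krt79*, *Krcc1* and *Perp* (0.99, 0.98 and 0.98). For *Cd9* they were *Lamtor2*, *Nfu1* and *Ltc4s* (0.99, 0.99 and 0.98), the last the leukotriene C4 synthase. *Tspan3* was most like *Fcgr2b*, *S100a4* and *Scpep1* (0.99, 0.97 and 0.97), and *Tspan4* like *Ctsl*, *Anxa3* and *Hexa* (0.97, 0.97 and 0.97). *Cd53* was most like *Ucp2*, *Slc15a3* and *Tcn2* (0.99, 0.99 and 0.98), *Cd37* like *Atp6v0c*, *Man2b1* and *Rrbp1* (0.95, 0.95 and 0.94), *Cd82* like *Prdx1*, *Fabp4* and *Blvrb* (0.95, 0.91 and 0.91) and *Cd151* like *Alas1*, *Calr* and *Tmem160* (0.99, 0.99 and 0.99). The rule takes the closest 3 genes of each member however close they are.

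The tetraspanins outside the 9 members and the proteins that tetraspanins bind or travel with were read in the same way. Of 22 other tetraspanin genes measured, 4 reached 20 CPM in the higher library, *Tspan14*, *Tspan31*, *Tspan32* and *Tspan5*, and 0 of these passed 1.5-fold, with a median log2 ratio of 0.24. Of all 5983 genes at that level in the higher library, 5.15% were higher and 3.09% lower by 1.5-fold. Below that level, *Tspan13* was at 6.88 CPM in control and 14.5 CPM in tumor, a log2 ratio of 1.08 (0.92 to 1.24). Of the 18 below it, those past 1.5-fold with intervals clear of 0, besides *Tspan13*, were under 1 CPM in both libraries. They were *Tspan33* at 1.91 (0.89 to 3.08), *Tspan9* at 1.19 (0.26 to 2.21) and *Upk1a*, lower, at −1.06 (−1.80 to −0.35). The share of all genes under 20 CPM that pass was not calculated, so these have no background to be set against. *Tspan14*, a partner of the protease ADAM10, was at 84.8 CPM in control and 115 CPM in tumor. Of 23 integrin genes, 9 reached that level, 2 were higher and 0 lower. *Itga4*, a chain of the VCAM-1 receptor, was at 47.5 and 77.8 CPM with 0.71 (0.65 to 0.78), and *Itga1*, a chain of a collagen receptor, at 13.4 and 20.2 CPM with 0.60 (0.47 to 0.72). Of 16 other partners, 12 reached the level 3 were higher and 0 lower. These were *Mmp14*, a membrane-bound metalloproteinase, at 0.59 and 29.4 CPM, *Ifitm3*, an interferon-induced membrane protein, at 5.07 and 53.7 CPM, and *Emb*, an adhesion protein, at 40.9 and 74.8 CPM. *Itga1*, *Mmp14* and *Ifitm3* reached the level in tumor alone, which favours calls in that direction. At 20 CPM over both libraries together, 1 of 8 integrins, *Itga4*, and 2 of 11 partners, *Emb* and *Ifitm3*, were higher and 0 lower. Of 17 genes of endosomes and exosomes, 15 reached it and 0 passed 1.5-fold in either direction, with a median of 0.16, so the 1.93-fold difference of *Cd63* was larger than that of any other endosomal gene on the list that reached 20 CPM.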

How the data were processed

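The authors deposited raw counts of UMIs, 1 table of genes by barcodes per library, from 10x Genomics 3′ reads run through Cell Ranger. The submitters' processing notes name Cell Ranger 4.0.0, bcl2fastq 2.20 and the genome build mm10, and the study's methods name another Cell Ranger version. The study's methods assign barcodes to samples by hashtags. Hashtag counts were not analysed here, and each table was taken as the library its label names.

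UMIs of the kept barcodes were summed per library and state and scaled to CPM. Levels have exact Poisson intervals and ratios exact conditional binomial intervals, both at 95%, and no p-value was calculated because each condition has 1 library. A gene was called when its ratio reached 1.5-fold. The Ear1+Ear2 and interferon thresholds came to 28.2 and 4.86 UMIs per 10000. Shares of barcodes with a UMI were compared after thinning to 3800 UMIs. Scrublet called 0 barcodes in either library by its automatic threshold, so it had not worked, and doublets were removed only in an alternative, by scores above the limit of the highest 6%. Scores tied at that limit were kept, so 274 (4.43%) control and 410 (5.35%) tumor barcodes were taken. The named genes are the 9 members, the state and cell type markers, list genes past 1.5-fold that reach 20 CPM in either library, and for each member the 3 genes most like it. One gene that this rule takes is not reported here. *Tspan14*, *Tspan31*, *Tspan32*, *Tspan5*, *Tspan13*, *Tspan33*, *Tspan9* and *Upk1a* were named after their values were seen. The members and lists were chosen with earlier results of these data known, and the division by *Apoe* and *S100a6*, the split by *Cd63* the promoter motifs and the level filter over both libraries were chosen after the data were seen. Protein sequences were not used here. Alternatives changed the doublets, the quality limits, the denominator, the averaging, the centring, the depth, other cell types, the state thresholds and the fold.

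On simulated counts of 12512 genes with 200 changed by 2-fold, 95.6% of intervals held the true ratio and 100% of changed genes had the true direction. The counts were drawn with counting error only, so this checks the calculation of the intervals. Variation between cells, animals or libraries and differences under 2-fold were not simulated. Python 3.11.15, numpy 2.4.6, scipy 1.17.1, pandas 2.3.3, scanpy 1.11.5 and matplotlib 3.10.9 were used.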

Additional observations from a re-analysis of the deposited data

Results flagged for a closer look

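The quality filter left out 2300 control and 1509 tumor barcodes, which no comparison above used. They were looked at because a member at least 1.5-fold above the control library there is a signal outside the main measurement. In them *Cd63* was at 203 CPM in control and 338 CPM in tumor, a log2 ratio of 0.74 (0.57 to 0.90), so the higher tumor level was also present in barcodes the filter removed. *Cd37* was at 17.7 CPM from 53 UMIs in control and 32.0 CPM from 62 UMIs in tumor, a log2 ratio of 0.86 (0.30 to 1.41), while its ratio in the kept barcodes was −0.07. Counting every member, 3 were at least 1.5-fold higher there, with *Tspan3* from 3 and 5 UMIs, and 3 lower, *Cd81* at −0.98 (−1.26 to −0.70), *Cd151* at −0.76 (−1.56 to −0.01) and *Cd9* at −0.68 (−0.75 to −0.62). Of 5269 genes at 20 CPM over these barcodes, 11.8% were higher and 8.05% lower. These barcodes are shallow or rich in mitochondrial transcripts, with *Cd9* at 2499 and 1555 CPM, below its level in the kept barcodes of both libraries.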

How the results depend on the processing

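No log2 ratio of a member that passed 1.5-fold changed sign under any alternative run. Of the counts of members or list genes past the fold, most stayed within 1.5 times and 26 moved. At 2-fold in place of 1.5-fold, 1 member was higher in tumor over all kept barcodes, in Ear1+Ear2 and in unassigned barcodes. It was *Tspan3*, *Cd63* and *Tspan3*, in that order. Of the 5741 genes at 20 CPM, 1.71%, 0.854% and 1.43% were higher by 2-fold there. *Tspan3*, under 20 CPM, is not among these genes. In Apoe+S100a6 over unassigned 0 members were higher, beside 0.418% of genes. Tumor mitotic over unassigned had 0 higher and 0 lower, beside 3.74% and 0.871% of genes. Control mitotic over unassigned had 1 lower, beside 0.662%. For the counts of members under the alternatives that follow, the share of all genes past the fold is not given. They have no background to be set against and show only how the counts depend on the setting. Thinned to 3800 UMIs, 4 members were higher in tumor within mitotic barcodes, 1 lower in control Ear1+Ear2, 1 higher in control mitotic, 0 lower in tumor Ear1+Ear2 (*Tspan3* at −0.41) and 1 lower in tumor mitotic over unassigned (*Cd37* at −0.23). With the mean of each barcode's CPM, 1 was lower in tumor within mitotic barcodes, 1 lower in control Ear1+Ear2 and 1 higher in interferon over unassigned. At most 5% mitochondrial UMIs gave 1 lower in control Ear1+Ear2 and 0 higher in tumor mitotic over unassigned (*Tspan3* at 0.53). Looser state thresholds gave 1 higher in tumor within unassigned barcodes, where *Cd63* came to 0.51, and 1 higher in interferon, and stricter ones 2 lower in control Ear1+Ear2. Barcodes in several states counted in each gave 2 higher and 1 lower in interferon, and centring on the median gene or leaving out other types gave 1 higher there. Without the highest doublet scores, or at 20 CPM over both libraries together (chosen after seeing the data), 1 integrin was higher in place of 2. The causes were not tested, apart from the stricter fold, which by construction calls fewer. Of the members' log2 ratios 98 moved beyond their counting interval, 865 did not, and of those past 1.5-fold 0 reversed.

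No paired analysis was possible because each condition had 1 library. Only counting error is given, and levels under 20 CPM, *Tspan3* above all, rest on few UMIs in the smaller states.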
